A study of Rattus norvegicus with 16 samples.

Results

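The 100 genes described here had a lower level in the hypothalamus of F3 control rats than in any other rats of the study. They were chosen by plain CPM, which is the count of a gene divided by the sum of all gene counts of its library, times 1000000, with no other scaling. A gene had to reach at least 5 CPM in each of the 12 libraries outside F3 control, which 9965 of the 32883 listed gene IDs did. These genes were ranked by the lowest CPM among the 12 libraries divided by the highest CPM among the 4 F3 control libraries, to which 0.1 CPM was added, and the top 100 were taken. All 16 libraries were used in this choice, so the low level in F3 control is a description of the chosen genes and carries no test. The mean of F3 control ran from 44.9% to 80.3% of the mean of the 12 other libraries, with a median of 63.6%.

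RNA was sequenced from 16 female Wistar rats aged 21 days, 4 in each of 4 groups. In F1 control and F1 EDC the rats were exposed in utero, either to vehicle or to endocrine disrupting chemicals given as a mixture (EDC). In F3 control and F3 EDC the exposure to vehicle or mixture was ancestral. In all groups the exposure was through food and along the maternal line. According to the labels it started 2 weeks ahead of gestation and ended with lactation. The labels used here do not list the contents of the mixture. The tissue, called MBH-PoA in the labels, is bulk hypothalamus, so fewer cells of a type and less RNA per cell cannot be told apart.

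The hypothalamus links the nervous system to the pituitary gland and sets the timing of puberty, stress responses, feeding and maternal behaviour through peptide and steroid signals. Endocrine disrupting chemicals act on hormone receptors or on hormone synthesis and breakdown. When a pregnant female is exposed, her fetus and the germ cells inside that fetus are exposed with her, and the F3 animals are the descendants that were not themselves reached in this way.

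The files list Ensembl gene IDs without names, and the gene table used here pairs 0 of them with a symbol. What these genes do is therefore not described, the tissue was not checked against marker genes, and genes are called by their rank in the list, from rank 1 with the widest gap to rank 100. The shallowest library, F1 control replicate 4, held 5655354 gene counts and the deepest, F1 EDC replicate 4, held 35981898, and from 10987632 to 28768727 in F3 control. Reads that mapped to several places took 15.7% to 51.6% of a library. The 10 genes with the most counts took 13.9% (F1 control replicate 2) to 27.3% (F3 EDC replicate 4) of the gene counts, and plain CPM of all other genes moves with that share. A lane number in the names of the deposited files is the same for all F1 samples and differs from that of all F3 samples. The labels put 4 samples on a lane, which does not match 8 files with 1 number, so what the number stands for is unclear, and it cannot be told apart from generation. All 8 EDC samples carry the word "Control" in their titles, although the treatment field of each names the mixture, and that field was followed. The labels do not say whether the rats came from separate litters, so p-values measure the spread between these samples only.

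The gap was small for most of the genes. The ratio was 1.44 at rank 1, 1.31 at rank 2 and 1.26 at rank 3, its median over the 100 genes was 1.12, and it was over 1 in 286 of the 9965 genes (2.87%). The ratios just inside the list were 1.0746 at rank 98, 1.0745 at rank 99 and 1.0737 at rank 100, and the ratios just outside were 1.0737, 1.0733 and 1.0731 for the next 3 genes. The list thus ends in the middle of a slope and not at a step. With TMM factors, which correct library sizes for a few genes that take many counts, the same genes had ratios from 0.902 to 1.27, and the ratio stayed over 1 in 83 of the 100. The factors were 0.900 to 0.982 in F3 control, 1.01 to 1.03 in F3 EDC replicates 1 to 3 and 0.898 in F3 EDC replicate 4, so TMM scaling raised the values of F3 control relative to most of the others. The plot of ratios by rank shows both scalings.

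**Figure D1:**
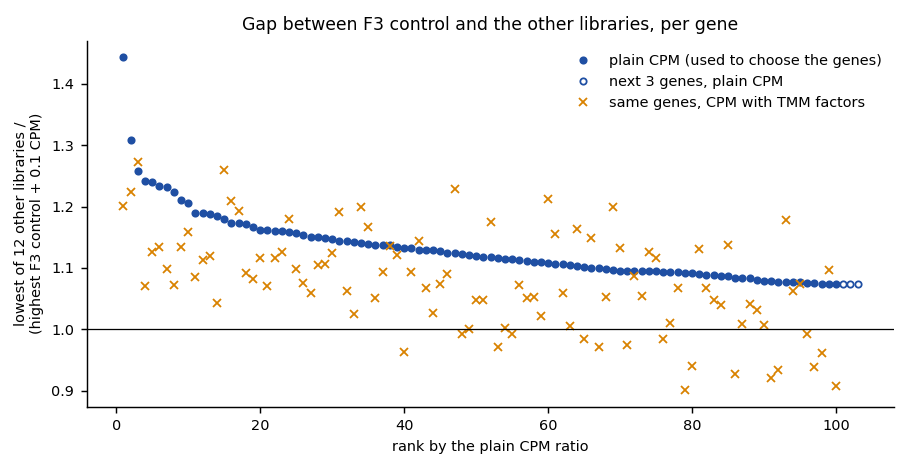
Ratio of the lowest CPM among the 12 libraries outside F3 control to the highest F3 control CPM plus 0.1 CPM (y axis) for each gene by rank (x axis). Filled circles are plain CPM, which chose the genes, open circles the next 3 genes, and crosses the same 100 genes with TMM factors. The plain ratios fall from 1.44 to 1.0737 without a step, and 83 of the 100 crosses lie above the line at 1.

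Intervals for counting error overlapped across the gap for most genes. Such an overlap concerns 1 library on each side, and it does not mean that the error was as wide as the gap. Exact 95% Poisson intervals, which cover counting error only, were set around the highest F3 control value and the lowest other value of each gene, and these intervals overlapped in 74 of the 100. The lowest count of a gene in any library ran from 41 to 1573, with a median of 334.5. At rank 1, a gene with 130 counts in the highest F3 control library and 80 counts in the lowest other library, F3 control reached up to 5.29 CPM (upper bound 6.28) and the lowest other library was at 7.78 CPM (lower bound 6.17). At rank 2, with 1144 and 628 counts, F3 control reached 46.6 CPM (upper bound 49.3) and the lowest other library was at 61.1 CPM (lower bound 56.4), so these intervals were apart. Of the 12 top-ranked genes, the intervals overlapped at ranks 1, 3 and 6.

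The 12 genes at the top of the list are given with their plain CPM in replicates 1 to 4 of each group. The rank 1 gene was at 3.72, 5.20, 5.29 and 4.73 CPM in the F3 control rats and at 8.95, 8.64, 9.10 and 7.78 CPM in F3 EDC. Its F1 values were 9.45, 13.3, 10.2 and 14.1 CPM in control and 8.09, 7.98, 9.64 and 7.81 CPM in EDC. F1 EDC and F3 EDC overlapped for this gene, and F1 control had its highest values. The rank 2 gene was at 38.9, 44.2, 46.6 and 44.7 CPM in the F3 control rats and at 61.6, 61.3, 71.1 and 61.1 CPM in F3 EDC. It was at 83.8, 89.6, 73.4 and 84.3 CPM in the F1 control rats and at 72.3, 66.2, 66.8 and 78.0 CPM in F1 EDC. F3 EDC lay below all 4 F1 control values of this gene and overlapped F1 EDC.

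The rank 3 gene was at 6.33, 3.57, 6.06 and 6.46 CPM in F3 control, where replicate 2 stood apart, and at 10.05, 11.4, 10.8 and 9.53 CPM in F3 EDC. It was at 8.25, 12.2, 13.3 and 13.3 CPM in the F1 control rats and at 11.1, 10.9, 9.64 and 15.5 CPM in F1 EDC. The 3 groups outside F3 control overlapped. The rank 4 gene was at 20.2, 15.8, 19.8 and 19.9 CPM in F3 control, again with replicate 2 apart, and at 26.6, 25.8, 30.4 and 26.1 CPM in F3 EDC. Its F1 values were 34.5, 35.4, 28.6 and 33.6 CPM in control and 28.7, 25.2, 28.2 and 31.1 CPM in EDC. Both EDC groups overlapped here, mostly below F1 control.

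The rank 6 gene was at 9.45, 8.32, 9.52 and 9.37 CPM in the F3 control rats and at 11.9, 13.6, 12.2 and 14.2 CPM in F3 EDC. It was at 16.4, 19.9, 16.8 and 17.9 CPM in the F1 control rats and at 16.7, 20.3, 19.9 and 19.8 CPM in F1 EDC. The groups of this gene fell into 3 steps without overlap, F3 control lowest, F3 EDC next and both F1 groups highest. The rank 7 gene was at 75.9, 84.1, 76.8 and 79.4 CPM in the F3 control rats and at 111, 107, 136 and 104 CPM in F3 EDC. It was at 141, 140, 129 and 131 CPM in the F1 control rats and at 107, 122, 121 and 137 CPM in F1 EDC. Replicate 3 of F3 EDC lay within the F1 control range while the other 3 lay below it.

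The rank 8 gene was at 27.7, 24.1, 30.9 and 29.8 CPM in the F3 control rats and at 38.5, 47.4, 58.0 and 42.9 CPM in F3 EDC. Its F1 values were 53.1, 55.0, 50.8 and 62.8 CPM in control and 40.8, 37.9, 41.4 and 42.7 CPM in EDC. F1 EDC lay below all 4 F1 control values. The rank 9 gene was at 30.0, 30.6, 34.8 and 29.3 CPM in the F3 control rats and at 47.6, 42.3, 49.7 and 44.5 CPM in F3 EDC. It was at 56.3, 51.5, 46.6 and 58.5 CPM in the F1 control rats and at 82.7, 75.1, 80.0 and 78.6 CPM in F1 EDC. F1 EDC stood above all other libraries for this gene.

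The rank 10 gene was at 36.9, 42.9, 52.2 and 52.8 CPM in the F3 control rats and at 65.3, 67.9, 83.8 and 63.8 CPM in F3 EDC. It was at 77.7, 98.7, 91.0 and 73.6 CPM in the F1 control rats and at 129, 117, 114 and 119 CPM in F1 EDC. As at rank 9, F1 EDC was highest and did not overlap the other groups. The rank 11 gene was at 17.2, 14.4, 16.7 and 16.02 CPM in the F3 control rats and at 20.6, 22.4, 23.8 and 22.4 CPM in F3 EDC. It was at 26.3, 27.7, 23.0 and 25.1 CPM in the F1 control rats and at 26.2, 28.6, 25.7 and 27.2 CPM in F1 EDC, with much overlap between them. The rank 12 gene was at 42.8, 43.9, 57.3 and 55.4 CPM in the F3 control rats and at 72.4, 68.3, 78.0 and 71.7 CPM in F3 EDC. Its F1 values were 87.9, 83.2, 76.7 and 76.4 CPM in control and 87.7, 82.1, 90.0 and 110 CPM in EDC. F3 control replicates 1 and 2 lay well below replicates 3 and 4 at ranks 10 and 12. The rank 5 gene is given below, with the comparison of the F1 groups.

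**Figure D2:**
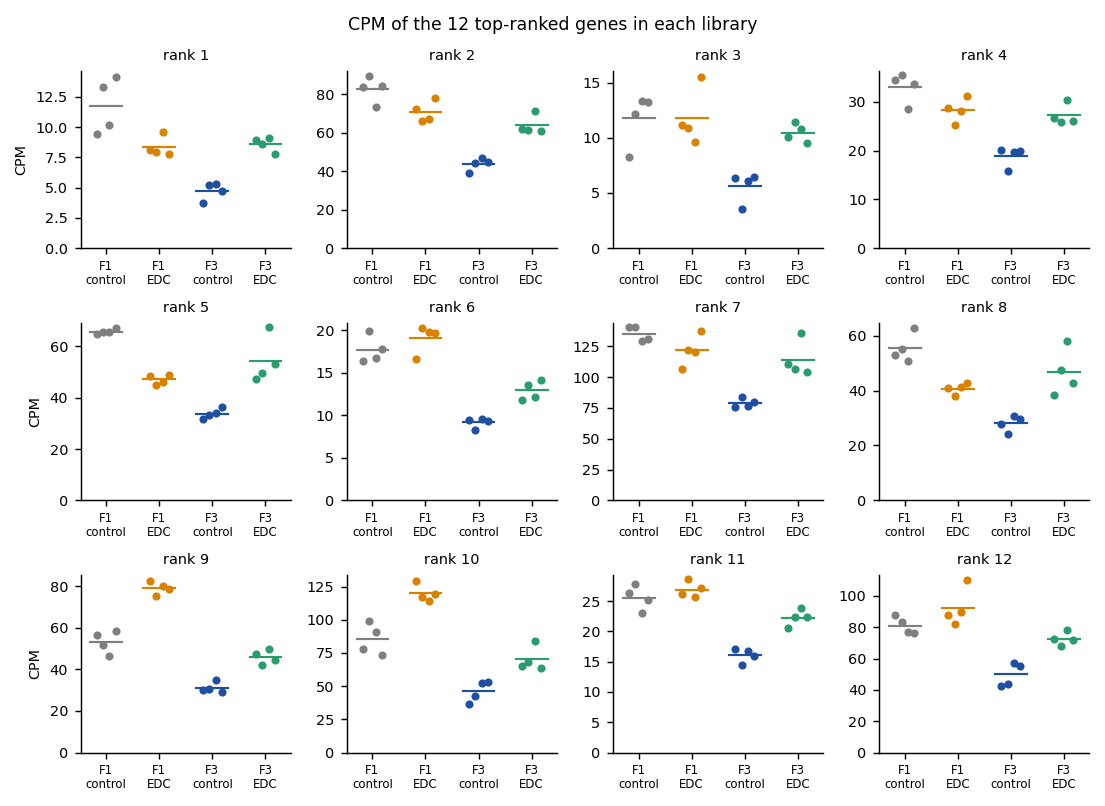
Plain CPM (y axis, from 0) of the 12 top-ranked genes, 1 panel each, by group (x axis). Points are libraries in the order of replicates 1 to 4, and lines are group means. The 4 F3 control points lie below all 12 others in each panel, as the choice of genes requires, while F1 EDC lies above F1 control at ranks 9 and 10 and below it at ranks 5 and 8.

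The list held genes of low, middle and high levels. The mean over the 12 other libraries ran from 9.59 to 394 CPM with a median of 60.9 CPM, against a median of 38.9 CPM over the 9965 genes. It was under 10 CPM in 2 of the 100 genes and over 100 CPM in 24. The mean of F3 control was below 50% of the mean of the other libraries in 8 genes, at ranks 1, 3, 23, 24, 47, 51, 69 and 88. The lowest of these shares was 44.9%, at rank 51, a gene at 4.37 ± 0.378 CPM in F3 control, 6.38 ± 0.846 CPM in F3 EDC, 6.70 ± 0.740 CPM for F1 control and 16.1 ± 1.84 CPM in F1 EDC (SD, n = 4). Its low share goes with a high F1 EDC level. In contrast, the rank 47 gene, at 54.8 ± 5.33 CPM in F3 control, was at 86.7 ± 10.9 CPM in F3 EDC, 109 ± 10.9 CPM for F1 control and 158 ± 6.77 CPM in F1 EDC (SD, n = 4), so that each group differed from the next by more than its SD.

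The 100 genes together took 4481 ± 305 CPM in F3 control, 6157 ± 436 CPM in F3 EDC, 7269 ± 464 CPM for F1 control and 8465 ± 442 CPM in F1 EDC (SD, n = 4). The sums in F3 control replicates 1 to 4 were 4126, 4331, 4697 and 4769 CPM, and those in F3 EDC were 6100, 6044, 6763 and 5724 CPM. They were 7221, 7935, 6887 and 7033 CPM in the F1 control rats and 8274, 8094, 8391 and 9103 CPM in F1 EDC. In plain CPM the 4 groups did not overlap in this sum and followed the order F3 control, F3 EDC, F1 control and F1 EDC, of which the lowest place was fixed by the choice of genes. With TMM factors the F1 groups overlapped, F1 control at 7303 ± 291 CPM and F1 EDC at 7821 ± 330 CPM, while F3 control was at 4764 ± 233 CPM and F3 EDC at 6220 ± 294 CPM (SD, n = 4).

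Within a group, the same libraries often held the highest or the lowest value of these genes. The counts below were not made over all genes that reached 5 CPM in the 12 libraries. Whether they are particular to the chosen genes was therefore not tested. Within F3 control, replicate 1 was the lowest for 53 genes and replicate 2 for 33, whereas replicate 4 was the highest for 54 and replicate 3 for 29. Within F3 EDC, replicate 3 was the highest for 80 genes and replicate 4 the lowest for 60. The lowest of the 12 other values came from F3 EDC in 79 genes, of which replicate 4 gave 52, from F1 control in 12 and from F1 EDC in 9. Some of this moved with the scaling. With TMM factors F3 EDC replicate 4 was the lowest of its group for 12 genes instead of 60, and F1 control replicate 2 was the highest of its group for 17 instead of 65, and these were the libraries with the largest and the smallest share of counts in the top 10 genes. With TMM factors F3 EDC replicate 3 was the highest for 51 genes instead of 80. In F3 control, replicate 1 was then the lowest for 54 genes, replicate 2 was the lowest for 17 instead of 33 and the highest for 30 instead of 8, and replicate 4 was the highest for 31 instead of 54. Multimapping reads took 43.3%, 33.4%, 16.5% and 30.1% in F3 control replicates 1 to 4 and 15.7%, 23.1%, 15.7% and 44.4% in F3 EDC, and their part in these levels was not tested.

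Relative to each gene's mean log2 CPM over the 12 libraries, the median log2 difference of the 100 genes was -0.74, -0.70, -0.59 and -0.58 in F3 control replicates 1 to 4. It was -0.21, -0.23, -0.06 and -0.26 in F3 EDC, between -0.07 and 0.14 in F1 control and between 0.14 and 0.29 in F1 EDC. Over all 9965 genes the same median, with 0.1 CPM added to each value, lay between -0.15 and -0.08 in F3 control. It lay between -0.20 (replicate 4) and 0.005 in F3 EDC, between -0.09 and 0.12 (replicate 2) in F1 control and between 0.02 and 0.11 in F1 EDC. The 9965 genes had to reach 5 CPM in the 12 libraries but not in F3 control, which favours lower values there. With TMM factors the medians of the 100 genes in F3 control were -0.61, -0.52, -0.48 and -0.53, and those in F3 EDC were -0.22, -0.21, -0.07 and -0.07. The F1 medians then overlapped, from 0.02 to 0.09 in control and from 0.05 to 0.18 in EDC.

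**Figure D3:**
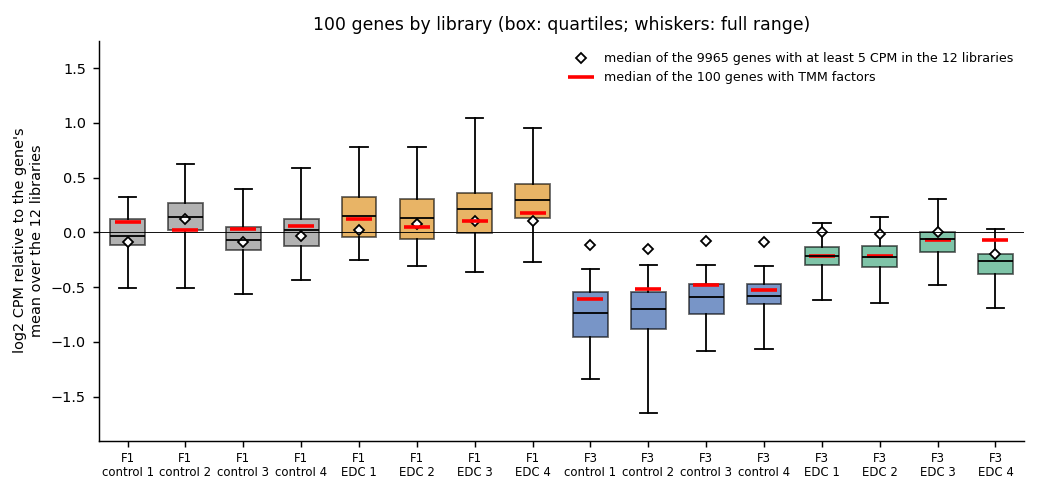
Log2 plain CPM relative to each gene's mean log2 CPM over the 12 libraries outside F3 control (y axis) for the 100 genes in each of the 16 libraries (x axis). Boxes are quartiles with the median, whiskers the full range, diamonds the median of all 9965 genes at this level, and red bars the median of the 100 genes with TMM factors. F3 control is lowest by choice, and in plain CPM the medians of F3 EDC lie at -0.06 or below and those of F1 EDC at 0.14 or above, while with TMM factors the F1 medians overlap.

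Replicates of a group agreed for these genes about as closely as for others at this level, or more closely. The median coefficient of variation of plain CPM between the 4 libraries was 8.82% in F3 control, 7.87% in F3 EDC, 9.69% in F1 control and 7.71% in F1 EDC. Over the 9965 genes these medians were 9.49%, 9.80%, 13.4% and 9.78%. The choice itself favours genes with a narrow spread, so these values are a description.

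F3 EDC was compared with F1 control to see where the genes stood in the ancestral EDC line. These libraries also entered the choice of genes, and F3 EDC supplied the lowest of the 12 values in 79 of the 100, so the p-values are not independent of the choice and the counts are given as a description. By edgeR's quasi-likelihood test 33 of the 100 genes were lower in F3 EDC at an adjusted p under 0.05 and 0 were higher, by log2 fold changes of -0.60 to -0.20 in those that passed. Of the 9965 genes at this level 10.1% were called lower and 12.1% higher, 22.1% in all, and of all 15366 genes tested 7.04% and 9.12%, 16.2% in all. At an unadjusted p under 0.05, 59 were lower and 0 higher, against 20.2% and 16.7% of the 9965 genes. DESeq2 called 32 lower and 0 higher, against 10.2% and 13.4%. The median log2 fold change was -0.21 over the 100 genes, against -0.06 over the 9965 and -0.05 over all tested. The mean of F3 EDC was below that of F1 control in 93 of the 100 genes, against 60% of the 9965, and, in plain CPM, all 4 F3 EDC values lay below all 4 F1 control values in 28, against 9.13% of the 9965 genes. In 0 genes they lay above, against 9.86%. With TMM factors they lay below in 37 genes and above in 0, against 13% of the 9965 in either direction. The contrast spans both lane numbers.

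The mean of F3 EDC was the second lowest, after F3 control, in 83 of the 100 genes. In 62 of these F1 EDC was the highest group and in 21 F1 control. F1 EDC was the second lowest in 10 genes and F1 control in 7. With TMM factors F3 EDC was second lowest in 49 genes with F1 EDC highest and in 19 with F1 control highest, and F1 EDC was second lowest in 26 and F1 control in 6. These orders were not counted over the 9965 genes, so the counts are a description only. In plain CPM the mean of F3 EDC was below that of F1 control in 60% of the 9965. F3 EDC also supplied the lowest of the 12 values, on which the choice rests, in 79 of the 100 genes. Among the 12 top-ranked genes, the log2 fold change of F3 EDC against F1 control was negative throughout, but only ranks 2, 6 and 7 passed. The log2 fold change was -0.44 at rank 6 (SE 0.12, edgeR adjusted p = 0.0124), -0.37 at rank 2 (SE 0.08, edgeR adjusted p = 0.00292) and -0.24 at rank 7 (SE 0.08, edgeR adjusted p = 0.0488). The call at rank 7 was lost under 8 of 11 other settings and in 14 of 16 fits that left out a library. The call at rank 6 was lost without F1 control replicate 2 and without F3 EDC replicate 1 (edgeR adjusted p = 0.0523 and 0.0555), without a filter on low counts and with only the libraries of both groups fitted (edgeR adjusted p = 0.0520 and 0.0506). The rank 1 gene had a log2 fold change of -0.42, close to that at rank 6, and did not pass (SE 0.16, edgeR adjusted p = 0.0765). In the rank 47 gene, F3 EDC fell by 0.32 on the log2 scale (SE 0.07, edgeR adjusted p = 0.00240).

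F1 EDC against F1 control asks how the genes differed with exposure in utero. The choice of genes used the values of these 8 libraries through the lowest of the 12, though not the difference between these groups, so the p-values are not independent of it and the counts are given as a description. By edgeR's quasi-likelihood test 61 of the 100 genes passed an adjusted p of 0.05, 36 higher and 25 lower in F1 EDC. The share called was 61.5% of the 9965 genes at this level, 29.5% higher and 31.9% lower, and 52.4% of all 15366 genes tested, 25.4% higher and 27% lower. The members' count of 61 is thus at the level of the background. The log2 fold changes ran from -0.60 to 1.14 with a median of 0.06, against -0.02 over the 9965 genes. In plain CPM all 4 F1 EDC values lay above all 4 F1 control values in 42 genes and below them in 12, against 30.2% and 19.5% of the 9965. With TMM factors these counts were 35 and 22, against 25.6% and 26.9%. The balance of directions depended on the scaling: with library totals alone 44 genes were higher and 14 lower, and that scaling moved the median log2 fold change of all tested genes from -0.0042 to 0.11. Multimapping reads took 46.2% ± 4.11 of F1 EDC and 35.3% ± 10.6 of F1 control libraries (SD, n = 4), and with their share as a covariate 34 genes were higher and 22 lower.

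**Figure D4:**
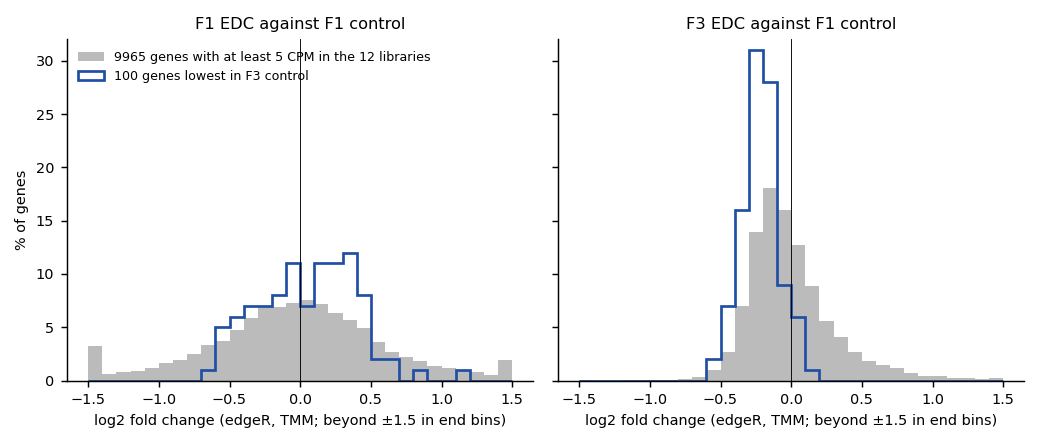
Percentage of genes (y axis) by log2 fold change from edgeR (x axis), with 1 panel for F1 EDC and 1 for F3 EDC, each against F1 control, so that both share the F1 control libraries. Grey bars are the 9965 genes with at least 5 CPM in the 12 libraries outside F3 control, and the blue outline the 100 genes. The outline is spread on both sides of 0 in F1, with 36 called higher and 25 lower, against 29.5% and 31.9% of the 9965. It lies mostly below 0 in the other comparison, with 33 called lower and 0 higher, against 10.1% and 12.1%.

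The members with the smallest p in F1 are given by ID, 2 in each direction. ENSRNOG00000012698 (rank 63) was at 18.3, 22.9, 16.04 and 17.5 CPM in the F1 control rats and at 35.8, 38.7, 34.5 and 37.8 CPM in F1 EDC. Its rise was 0.86 on the log2 scale (SE 0.11, edgeR adjusted p = 4.69e-07). The F3 values were 13.3, 13.9, 14.4 and 12.9 CPM in control and 17.5, 16.5, 16.1 and 17.3 CPM in EDC. The F3 EDC values lay within the F1 control range for this gene, and F1 EDC stood apart from all other libraries. ENSRNOG00000011946 (rank 58) was at 357, 340, 330 and 278 CPM in the F1 control rats and at 540, 487, 577 and 633 CPM in F1 EDC. Its log2 fold change was 0.65 (SE 0.09, edgeR adjusted p = 2.72e-06). It was at 205, 208, 251 and 207 CPM in the F3 control rats and at 297, 282, 323 and 285 CPM in F3 EDC, where F3 control replicate 3 stood above the other 3.

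ENSRNOG00000003626 (rank 67) was at 145, 153, 131 and 124 CPM in the F1 control rats and at 103.2, 100.8, 96.4 and 102.9 CPM in F1 EDC. Its level fell by 0.58 on the log2 scale (SE 0.09, edgeR adjusted p = 6.27e-06). The F3 values of this gene were 68.7, 72.6, 85.3 and 87.6 CPM in control and 106, 117, 128 and 120 CPM in EDC, so F3 EDC lay above F1 EDC. ENSRNOG00000000064 (rank 5) was at 64.8, 65.8, 65.7 and 67.0 CPM in the F1 control rats and at 48.5, 45.0, 46.3 and 48.9 CPM in F1 EDC. Its log2 fold change was -0.60 (SE 0.10, edgeR adjusted p = 1.27e-05). It was at 31.7, 33.1, 34.1 and 36.2 CPM in the F3 control rats and at 47.1, 49.8, 67.4 and 53.3 CPM in F3 EDC, where replicate 3 reached the F1 control level and the other 3 did not. In F3 EDC against F1 control none of these 4 genes passed (edgeR adjusted p from 0.0537 to 0.419), but rank 5 passed without F3 EDC replicate 3 (edgeR adjusted p = 0.0103) and rank 67 without F3 EDC replicate 4 or F1 control replicate 4 (edgeR adjusted p = 0.0480 and 0.0466).

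**Figure D5:**
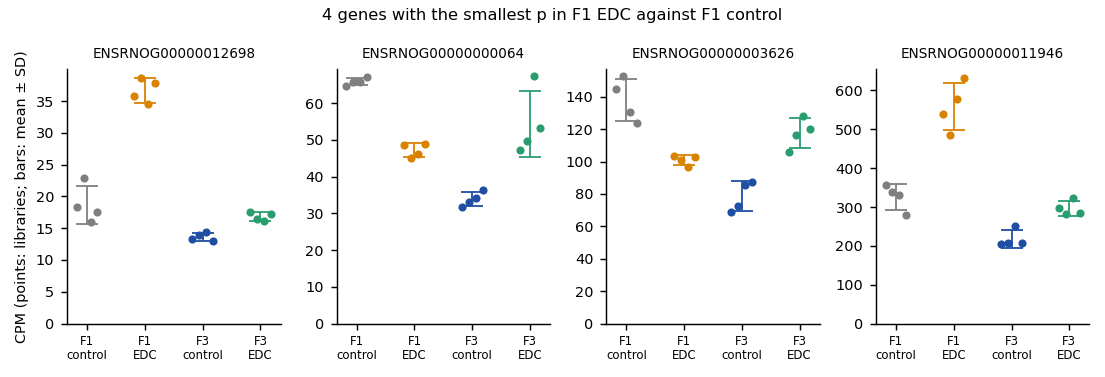
Plain CPM (y axis, from 0) by group (x axis) of the 2 members with the smallest p in each direction in F1 EDC against F1 control. Points are libraries and bars the mean ± SD (n = 4). F1 EDC stands at 34.5 to 38.7 CPM for ENSRNOG00000012698, above all other libraries, and below F1 control for ENSRNOG00000000064 and ENSRNOG00000003626. All groups lie above F3 control, as the choice of genes requires in plain CPM. With TMM factors the ratio of ENSRNOG00000003626 was 0.971, so its lowest other library fell below the highest F3 control library.

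The next 4 genes in each direction in F1 were those at ranks 51, 41, 47 and 37, which were higher in EDC by log2 fold changes of 1.14, 0.56, 0.42 and 0.52, and those at ranks 14, 100, 92 and 8, which were lower by fold changes of -0.45, -0.54, -0.39 and -0.56. Their SE lay between 0.07 and 0.17. Of the other top-ranked genes, those at ranks 9 and 10 were higher (0.45 and 0.37), those at ranks 1, 2, 4 and 7 were lower (-0.60, -0.34, -0.34 and -0.28), and those at ranks 3, 6, 11 and 12 did not pass (-0.09, -0.01, -0.04 and 0.06). The calls at ranks 4 and 7 were lost with library totals alone (-0.22 and -0.15).

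Both contrasts with F3 control were used by the choice of genes, and their counts are given as a description only. In F3 EDC against F3 control, edgeR's adjusted p was under 0.05 for 64 of the 100 genes, all of them higher in EDC, where 1.07% of all genes tested were called higher and 1.87% lower (2.94% in all), and 1.63% and 2.68% of the 9965 (4.31% in all). Leaving out replicate 3 of F3 EDC brought the count to 14, and leaving out replicate 2 or 1 of F3 control brought it to 29 or 36. The number called over all tested genes fell in these fits too, as given in the last section. The log2 fold changes ran from 0.18 to 0.83 with a median of 0.38. In F3 control against F1 control the adjusted p was under 0.05 for 97 of the 100, all lower, where 12.9% of all genes tested were called lower and 14.6% higher (27.5% in all), and 18.2% and 19.2% of the 9965 (37.3% in all). The log2 fold changes there ran from -1.21 to -0.18 with a median of -0.59.

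Reads on the other strand were few. They made up 0% to 6.67% of the stranded reads of a gene, with a median of 0.0491%, and over 1% in 8 of the 100 genes, at ranks 12, 45, 46, 53, 57, 72, 89 and 91. With unstranded counts in place of stranded ones, 93 of the 100 genes were again in the top 100 and 1 no longer reached 5 CPM in the 12 libraries.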

How the data were processed

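Gene counts came from the deposited STAR count files, 1 for each of 16 libraries, which list unstranded counts and counts for either strand over 32883 Ensembl gene IDs, per the file layout. Trimmomatic 0.33, TopHat2 2.1 and rn6 are named in the submitters' processing notes, with no version of STAR among them. Column 4 was used, since it held at least 52.5 times the counts of column 3. The 4 summary lines stayed out of the gene count totals used for CPM. Shares of multimapping reads were taken of a total that includes these lines.

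The 100 genes, the contrasts and the alternatives were chosen with earlier results of these data known. Plain CPM (minimum 5, offset 0.1) ranked the genes. Each contrast was tested with edgeR 4.0.16 (TMM factors, filterByExpr, quasi-likelihood F test, robust, two-sided, all 16 libraries, 4 group means), with Benjamini-Hochberg adjustment over 15366 genes and a threshold of 0.05. DESeq2 1.42.0, other factors, filters, counts and sets of libraries were alternatives. The multimapping covariate, the fit on 12 libraries and the TMM values of sums, group order and overlap were added after seeing the data.

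Genes given in full were the 12 at the top of the ranking, the 6 with the smallest p in each direction in F1, and those at the edge of the list. The genes at ranks 23, 24, 47, 51, 69 and 88, where singled out by their share of the other libraries, and those with reads on the other strand were chosen after their values were seen. Gene lists and cell type markers were not used, as the IDs have no symbols here, and no sequence is given for the same reason.

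In counts simulated for F1 EDC against F1 control (15131 genes), 82, 59 and 54 genes were changed by 0.5, 1 and 2 on the log2 scale. Of these, 36.6%, 72.9% and 83.3% were recovered, and 4.84% of the calls were false. For F3 EDC against F1 control (15126 genes), 56, 81 and 59 genes were changed. The recovered shares were 30.4%, 69.1% and 79.7%, and 1.64% of the calls were false. In the data 52.4% and 16.2% of the genes tested were called in these contrasts, a far larger part than was changed here. The simulated shares therefore do not describe recovery in the data. No pair of libraries was identical.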

Additional observations from a re-analysis of the deposited data

Results flagged for a closer look

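In 92 checks, 23 values were each looked at in the same 4 groups of 4 libraries. In 10 of them the gap of a library to its nearest neighbour took more of the group's range than Dixon's 95% critical value allows. The checks share their libraries and are not independent. Genes were also chosen by their extreme libraries or by small p in F1, so this number cannot be set against a rate from chance. In F3 control, replicate 2 was low at rank 3 (3.57 CPM), rank 4 (15.8 CPM) and rank 6 (8.32 CPM), and replicate 3 was high at rank 58 (251 CPM). In F3 EDC, replicate 3 was high at rank 2 (71.1 CPM) and at rank 100 (124 CPM, the others 101.4 to 102.9 CPM), and replicate 4 was low at rank 47 (70.5 CPM, the others 90.0 to 93.7 CPM). In F1 EDC, replicate 3 was high at rank 1 (9.64 CPM), replicate 1 low at rank 6 (16.7 CPM) and replicate 2 low at rank 14 (152 CPM, the others 161 to 163 CPM).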

How the results depend on the processing

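Of the 100 genes, 68 were again in the top 100 with TMM factors, 93 with unstranded counts, 86 with an offset of 1 CPM and 47 when group means were ranked in place of the extreme libraries. Leaving out 1 library kept 53 (without F3 EDC replicate 4) to 100, with 61 without F3 control replicate 4. The cause was not tested. The number of members called in F3 EDC against F3 control ran from 14 to 71 when 1 library was left out and from 58 to 78 under the other settings. All tested genes called there numbered 452, against 775 with DESeq2 and 166 with library totals alone, and 34 to 270 without any 1 of the F3 EDC libraries or of F3 control replicates 1 and 2. In F1 EDC against F1 control the members called ran from 55 to 66, in F3 EDC against F1 control from 22 to 35 and in F3 control against F1 control from 89 to 99. The replicate block gave 61 members called for F1 EDC and 31 for F3 EDC, each against F1 control, 96 for the control groups of both generations, and 59 for both F3 groups. Deviations of same-numbered samples correlated at -0.108 to 0.0884, and those of differently numbered samples at -0.187 to 0.215. These values cannot show whether same-numbered samples shared a litter or a batch. With the replicate block, rank 5 passed (edgeR adjusted p = 0.0497) and rank 7 did not (edgeR adjusted p = 0.0674) in F3 EDC against F1 control.

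The log2 fold changes in F1 of 4 genes that did not pass changed sign. With library totals alone they were 0.0239 at rank 3, 0.110 at rank 6 and 0.0750 at rank 11. Rank 6 was also at 0.0130 with DESeq2, 0.0123 with RLE factors, 0.0102 with a minimum mean log2 CPM of 1 and 0.0339 with upper quartile factors. Leaving out 1 library gave -0.248 to 0.00743 at rank 3 (above 0 without F1 control replicate 3), -0.0376 to 0.0345 at rank 6 (above 0 without F1 EDC replicate 1 and, at 0.00254, without F1 control replicate 2), -0.0733 to 0.00552 at rank 11 (above 0 without F1 control replicate 1) and -0.0173 to 0.142 at rank 12 (below 0 without F1 EDC replicate 4).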
